A study of Musa acuminata AAA Group with 12 samples.

Results

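Gene expression in the pulp of banana fruit was compared at day 7 of ripening between 3 chitosan-coated libraries (7A_a, 7A_b and 7A_c) and 3 uncoated control libraries (7K_a, 7K_b and 7K_c), which are 6 of the 12 libraries of the series. Of the 35270 genes of the deposited tables, 18246 reached an FPKM of 1 in 3 or more of these 6 libraries and were tested. FPKM counts the fragments of a gene relative to its length and to the mapped fragments of its library. All fruit were Cavendish bananas (Musa acuminata, AAA Group), taken as fingers treated with ethylene. The coated fruit had been coated with 1.25% chitosan and the control fruit had not been coated. The remaining 6 libraries are the control (1K) and the coated fruit (1A) at day 1, again with 3 biological replicates per group, lettered a, b and c. How many fingers made up a replicate is not given in the sources used here, so a p-value measures only the spread between these libraries. The comparison asks how the pulp of coated fruit differed from that of uncoated fruit late in ripening.

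Banana is a climacteric fruit, in which a burst of ethylene and respiration starts the breakdown of starch to sugars, the softening of cell walls and the loss of green colour. Ethylene given from outside starts this program uniformly. Chitosan, a polysaccharide made from chitin, forms a thin edible film on the peel that slows the exchange of gases and the loss of water, and it is used to prolong shelf life. In many plants chitosan is also known as an elicitor of defence responses. The tables give gene IDs without product names, and 0 of these IDs matched the gene table at hand, so no gene below carries a name or a role, and the labelled tissue could not be checked against its markers. RNA from a whole piece of pulp cannot tell fewer cells of a type from less RNA per cell.

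The 6 libraries separated first into 7A_c and 7K_c against the other 4 and only then by coating. In the study's own statistics, 7A_c and 7K_c have a lower GC percentage of reads than the other 4 day 7 libraries, and these 2 libraries are called the low-GC pair. The margin is small for 7A_c. Both also carry the letter c and have the lowest shares of mapped reads at day 7, so these traits cannot be told apart here. The first principal component of log2(FPKM + 1) over the 18246 genes held 75.7% of the variance and set 7A_c (84.4) and 7K_c (68.7) apart from the others, which lay between -45.1 and -24.2. Within the pair and within the other 4, the order on this component did not follow the GC percentage. The second component held 13.2% and separated the coated libraries (18.8 to 27.4) from the control libraries (-28.8 to -9.61). The deposited tables hold no counts, and depth was read from the width of their confidence intervals as implied fragments. These ranged from 11616351 to 16553602 in 5 libraries and came to 6136362 in 7A_c, where 12.8% of the tested genes rested on fewer than 10 implied fragments, against 3.12% to 5.26% in the others. The read statistics of the study do not show such a shortfall for this library, and the reason for the gap was not tested. An FPKM above 0 was found for 24774 ± 1396 genes in 7A and for 25599 ± 591 in 7K (SD, n = 3 each), a difference that did not pass a two-sided exact permutation test (p = 0.5, where 3 against 3 libraries can give no p below 0.1). Since 1 low-GC library stands on each side, results are given with and without 7A_c and, beside the plain comparison, within each GC group.

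**Figure D1:**
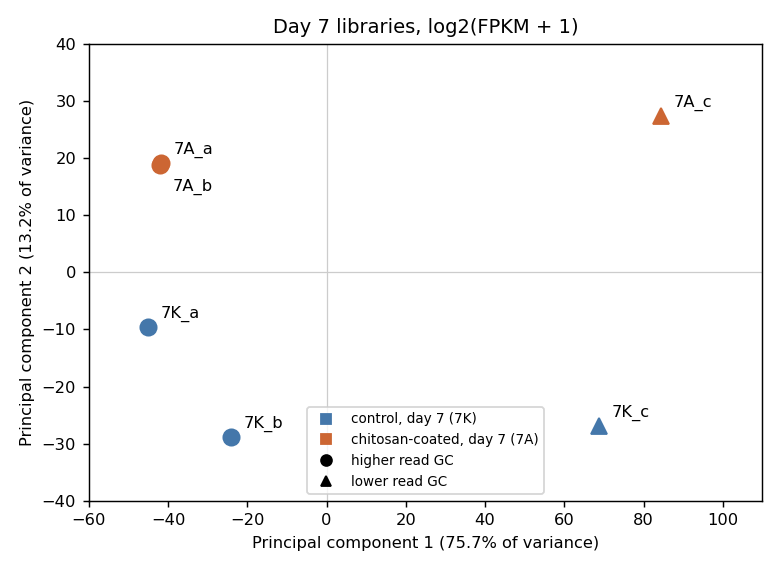
Principal components 1 and 2 of log2(FPKM + 1) in the 6 day 7 libraries, with the share of the variance on each axis, colour for the coating and shape for the read GC group. 7A_c and 7K_c lie far to the right on component 1 (84.4 and 68.7), and all 3 coated libraries lie above all 3 control libraries on component 2.

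In the plain comparison 28 of the 18246 tested genes differed with coating (0.153%). In the coated fruit 16 were higher (0.0877%) and 12 lower (0.0658%). A gene was called when its adjusted p from limma, after the Benjamini-Hochberg procedure over all tested genes, was under 0.05. In 26 of the 28 genes the group means differed by 1.77-fold to 5.08-fold, and every library held at least 32 implied fragments. The other 2 are short loci with very few fragments, described below. In each of the 28 genes the FPKM ranges of coated and control fruit were apart, as they were in 2181 of all tested genes (12%), with the coated range above in 357 (1.96%) and below in 1824 (10%). The tested genes as a whole had a median log2 fold change of -0.14 as deposited and 0.00 after median-of-ratios scaling, so log2 changes given here are to be read against a shift of that size. With median-of-ratios scaling 16 genes were called, 13 higher and 3 lower, with scaling to a common sum 26 (19 higher, 7 lower), and with quantile normalization 55 (41 higher, 14 lower), so the share of higher genes was larger with each rescaling. The direction of each of the 28 genes was the same under all of these.

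The count depended on single libraries and on how the low-GC pair was treated. Without 7A_c, 22 genes were called (0.121%), 12 higher (0.0658%) and 10 lower (0.0548%), and 16 of these were among the 28. Leaving out 7A_a gave 8 genes, 7A_b 12, 7K_b 4 and 7K_c 9, while leaving out 7K_a gave 27. The same limma fit with each library's GC group as a block called 1951 genes (10.7%), 386 higher (2.12%) and 1565 lower (8.58%), among them all 28. The replicate letter as a block in the 6 libraries alone gave 572 genes (3.13%), 166 higher (0.910%) and 406 lower (2.23%), again with all 28, but in the 12 libraries, where the low-GC libraries of day 1 are 1K_c, 1A_a and 1A_b and so do not all carry the letter c, it gave 2 genes (0.0110%). These 2 were Ma03_g20720 and Ma07_g08700. The 6 libraries alone without any block gave 0 calls with limma, with 745 genes at an unadjusted p under 0.05.

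The 16 genes that rose with coating at day 7 fell into 3 groups by their coating difference at day 1, where 816 of the same 18246 genes were called (4.47%), 447 higher (2.45%) and 369 lower (2.02%). The day 1 libraries are not those of day 7, but the spread of each gene was estimated over all 12 libraries. Of the 16 genes, 6 were also higher in coated fruit at day 1, 4 were lower at day 1, and 6 were not called at day 1. These groups follow the fit without a block. With the GC group as a block, 8 of the 16 were called higher at day 1 and 5 lower, against 12.1% and 13.5% of all tested genes.

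Ma08_g21440, a locus on chromosome 8 (35318736 to 35320582, coordinates of the DH Pahang version 2 genome as deposited), had the largest rise. Its FPKM was 3.89, 5.24 and 3.97 in 7K_a, 7K_b and 7K_c and 18.1, 19.4 and 29.0 in 7A_a, 7A_b and 7A_c. The lowest coated library was thus well above the highest control library, and 7A_c stood highest. The means of 4.36 ± 0.76 and 22.2 ± 5.98 (SD, n = 3 each) differ 5.08-fold (log2 fold change 2.09, SE 0.25, limma adjusted p = 0.0122). At day 1 the gene stood at 4.78 ± 1.01 in control and 12 ± 3.45 in coated fruit (SD, n = 3 each), so the mean at day 7 was above that at day 1 in the coated fruit and not in the control.

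Ma10_g18120 on chromosome 10 (29201316 to 29205784) had the smallest adjusted p among the rises (0.00914 from limma). It measured 7.01, 8.22 and 6.83 in the control and 24.7, 19.8 and 20.1 in the coated libraries, 2.92-fold higher (log2 fold change 1.43, SE 0.16). The log2 difference was 1.43 in the low-GC pair and 1.43 in the other 4 libraries. At day 1 its mean was 15.5 in control and 53.7 in coated fruit, so the level was lower at day 7 in both while the coated fruit stayed above the control.

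A further 3 genes of the group that was higher on both days likewise had their highest mean in 1A and their lowest in 7K. Ma09_g27560 stood at 10.6, 8.70 and 13.3 in 7K and at 25.3, 26.2 and 30.4 in 7A, after day 1 means of 22.9 (1K) and 102 (1A). Ma06_g21690 measured 8.38, 11.1 and 11.1 in the control and 26.9, 19.4 and 32.9 in the coated libraries, after 68.7 and 252 at day 1. Ma02_g19880 measured 2.56, 3.03 and 4.36 against 9.27, 8.53 and 9.52, after 15.5 and 40.3. The coated fruit at day 7 stood above the day 1 control in Ma09_g27560 and below it in the other 2 genes. The remaining gene of the group, Ma08_g26950 on chromosome 8 (39360262 to 39362743), was higher at day 7 than at day 1 in both fruit. It measured 10.2, 15.0 and 10.6 in 7K and 46.5, 36.5 and 35.3 in 7A, with a log2 fold change of 1.65 (SE 0.23, limma adjusted p = 0.0222), after day 1 means of 2.47 and 6.22.

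**Figure D2:**
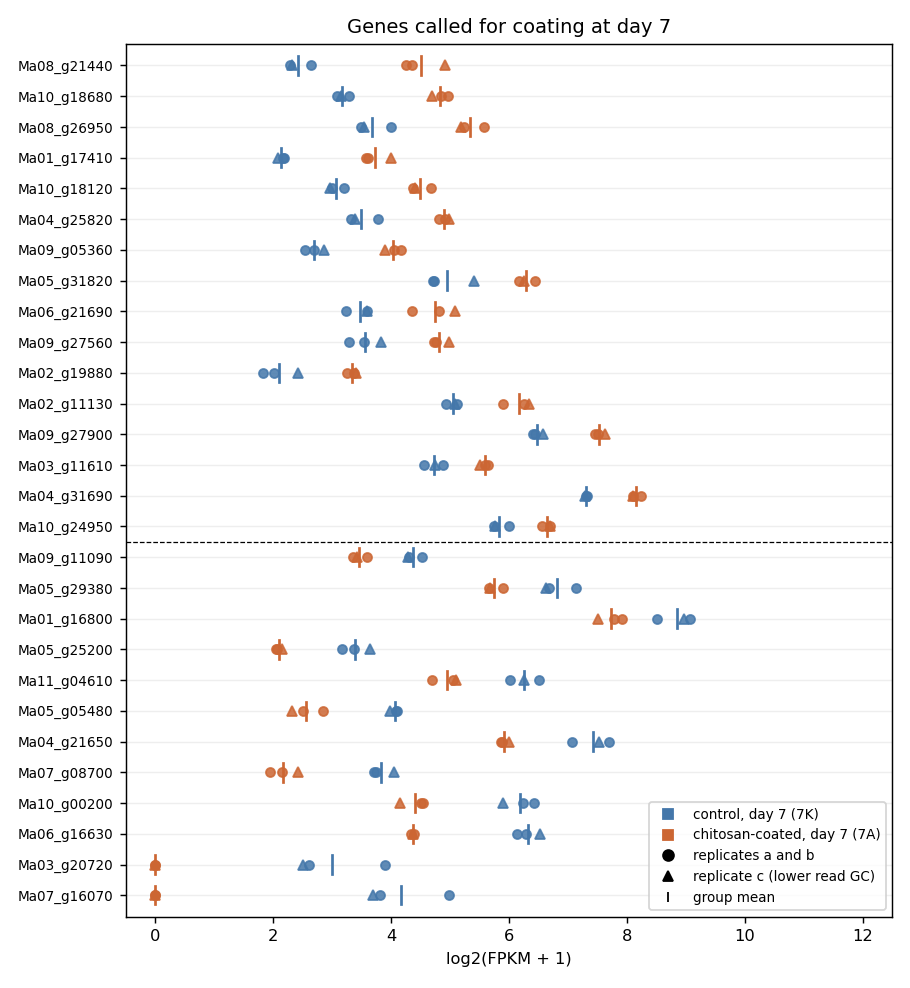
log2(FPKM + 1) of the 28 genes called at day 7 in each of the 6 day 7 libraries (points), with the group means as vertical bars, the rises above the dashed line and the falls below it. Coated and control points do not overlap in any gene, and the triangles of the low-GC libraries lie among or beside the circles of their own group.

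The 4 genes that were lower in coated fruit at day 1 and higher at day 7 were Ma04_g25820, Ma02_g11130, Ma03_g11610 and Ma10_g24950. In all 4 the day 7 minus day 1 difference of the coating effect passed the test itself, as it did in 319 of all tested genes (1.75%), with limma adjusted p of 0.00375, 0.00279, 0.00326 and 0.00279. These 4 genes had been selected by opposite calls on the 2 days in the same fit. Their passing was thus largely fixed by the selection and adds no separate evidence. Ma02_g11130 on chromosome 2 (20455185 to 20457424) had day 1 means of 182 ± 7.79 in control and 104 ± 6.06 in coated fruit (SD, n = 3 each). At day 7 it measured 33.5, 29.5 and 33.0 in the control and 75, 58.7 and 79.9 in the coated libraries. The level was thus lower at day 7 in both, but less so in the coated fruit, which ended 2.22-fold above the control. Ma04_g25820 (chromosome 4, 27459025 to 27461177) measured 12.8, 8.96 and 9.39 in 7K and 27.1, 29.1 and 30.5 in 7A, after day 1 means of 29.99 and 17.8, so the coated fruit held more at day 7 than at day 1 and the control less. Its day 1 call was marginal (adjusted p = 0.0497 from limma). Ma10_g24950 stood at 52.8, 62.6 and 53.3 against 102, 93.7 and 102, and at day 1 the order had been 148 in control against 77.5 in coated fruit. Ma03_g11610 stood at 28.5, 22.4 and 25.8 against 49.0, 47.4 and 44.4, after 74.7 and 43.8. In these last 3 genes, too, the control libraries lay closely together and below every coated library at day 7.

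Among the 6 risen genes without a call at day 1, Ma10_g18680 on chromosome 10 (29519830 to 29521140) had the largest ratio of day 7 means after Ma01_g17410. It measured 8.72, 7.47 and 7.85 in the control and 30.1, 27.7 and 24.8 in the coated libraries, 3.43-fold higher (log2 fold change 1.66, SE 0.20, adjusted p = 0.0122 from limma). Its level had been 85 ± 16.4 in control and 128 ± 31.6 in coated fruit at day 1 (SD, n = 3 each). Ma09_g05360 had a similar course, from 71.1 and 110 at day 1 to 4.82, 5.49 and 6.23 in 7K and 16.9, 15.6 and 13.9 in 7A. Both genes were much lower at day 7 than at day 1, and the coated libraries stood above the control libraries on the later day.

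Ma01_g17410 on chromosome 1 (12759162 to 12760535) was low at day 1 in control (0.966) and coated fruit (0.227). At day 7 it measured 3.52, 3.46 and 3.22 in the control and 11.1, 10.9 and 14.9 in the coated libraries, 3.62-fold higher. Ma05_g31820 likewise stood at 2.16 and 1.67 at day 1 and at 25.3, 25.4 and 41.4 in 7K against 70.5, 86.1 and 75 in 7A. These are genes of late pulp that were higher still under the coating. The difference of the coating effect between the days passed the limma test in Ma01_g17410 (2.27 on the log2 scale, adjusted p = 0.00424) and in Ma05_g31820 (1.57, adjusted p = 0.0231). The day 7 values that had called these genes enter that test as well.

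The most strongly expressed of the risen genes were Ma04_g31690 and Ma09_g27900. Ma04_g31690 on chromosome 4 (31927874 to 31932588) measured 156, 159 and 156 in the control and 299, 273 and 274 in the coated libraries. The control values were nearly equal, and the 1.79-fold higher mean of the coated fruit corresponds to 0.84 on the log2 scale (SE 0.12, limma adjusted p = 0.0292). At day 1 it stood at 72.6 and 77.2. Ma09_g27900 on chromosome 9 (38763963 to 38765320) measured 83.5, 85.3 and 93.9 in 7K and 181, 174 and 197 in 7A, 2.1-fold higher, after 381 and 341 at day 1. For neither gene was a coating difference called at day 1 (adjusted p = 0.854 and 0.686 from limma).

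The 12 genes that fell with coating at day 7 included none that was called at day 1 in either direction without a block. Of all tested genes 4.47% were called there, so among 12 genes this is near the background. With the GC group as a block, 1 was called higher and 1 lower at day 1, against 12.1% and 13.5% of all tested genes. The test of the difference between the days was passed by 8 of the 12, against 1.75% of all tested genes. The day 7 values that had called these genes enter that test too. Most of the 12 were genes with little or no expression at day 1. Ma06_g16630 on chromosome 6 (11260996 to 11262076) had the largest fall apart from the short loci. It measured 77.3, 68.9 and 90.7 in the control and 19.8, 19.2 and 19.7 in the coated libraries. The coated libraries were nearly equal, while the control libraries lay 4.04-fold higher (log2 fold change -1.95, SE 0.24, adjusted p = 0.0122 from limma). The day 1 means were 2.12 and 1.33.

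Ma10_g00200 on chromosome 10 (1436215 to 1437394) measured 84.7, 74.4 and 58.8 in 7K and 21.7, 22.1 and 16.8 in 7A, a difference of -1.79 on the log2 scale (SE 0.19, limma adjusted p = 0.00914). In both groups the low-GC library was the lowest, and the control remained 3.6-fold higher on average. Ma07_g08700, a long locus on chromosome 7 (6463246 to 6481252), measured 12, 12.3 and 15.6 against 2.83, 3.42 and 4.32, with a log2 fold change of -1.66. Here the low-GC library was the highest in both groups. Ma05_g05480 on chromosome 5 (4156951 to 4159084) measured 16.1, 16.0 and 14.8 against 4.69, 6.16 and 3.98, with a log2 fold change of -1.5. In all 3 genes the day 1 means were below 0.21 FPKM in control and coated fruit, so the transcripts were found almost only at day 7, and mostly in uncoated fruit.

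Ma04_g21650 on chromosome 4 (24157485 to 24158477) was of the same kind but more abundant. It stood at 0.0991 and 0.216 at day 1 and at 132, 205 and 182 in 7K against 57.1, 58.1 and 62.5 in 7A, 2.92-fold higher in the control. Ma05_g25200 measured 7.94, 9.35 and 11.5 in the control and 3.15, 3.19 and 3.44 in the coated libraries, after 0.0979 and 0.213 at day 1. The coated libraries again lay closer together than the control libraries in both genes.

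Ma01_g16800 on chromosome 1 (12236541 to 12237105) was the most abundant of the fallen genes. It measured 362, 537 and 499 in 7K and 219, 239 and 181 in 7A (log2 fold change -1.11, SE 0.17, adjusted p = 0.043 from limma), after 36.9 and 28.4 at day 1. Ma05_g29380 measured 101, 140 and 97.8 against 58.2, 49.5 and 49.9, after 21.1 and 29.0. Ma11_g04610 and Ma09_g11090 stood at 49.5 and 39.6 and at 15.1 and 16.1 at day 1. At day 7 Ma11_g04610 stood at 63.6, 89.4 and 75.5 in the control and 31.9, 24.7 and 33.4 in the coated libraries, and Ma09_g11090 at 18.8, 22.0 and 18.4 against 11, 9.23 and 9.64. For Ma09_g11090 the coated fruit at day 7 was below, and the control above, both day 1 means.

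The short loci Ma03_g20720 (403 bp) and Ma07_g16070 (150 bp) were listed at 0 in all 3 coated libraries. Their control values of 13.8, 5.10 and 4.64 FPKM and of 30.5, 13.0 and 11.9 FPKM stand for 3, 1 and 1 and for 5, 2 and 2 implied fragments. Such numbers are at the limit of what the depth can show, and no fold is given. With limma's voom on the implied fragments neither was called (adjusted p = 0.461 and 0.277).

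**Figure D3:**
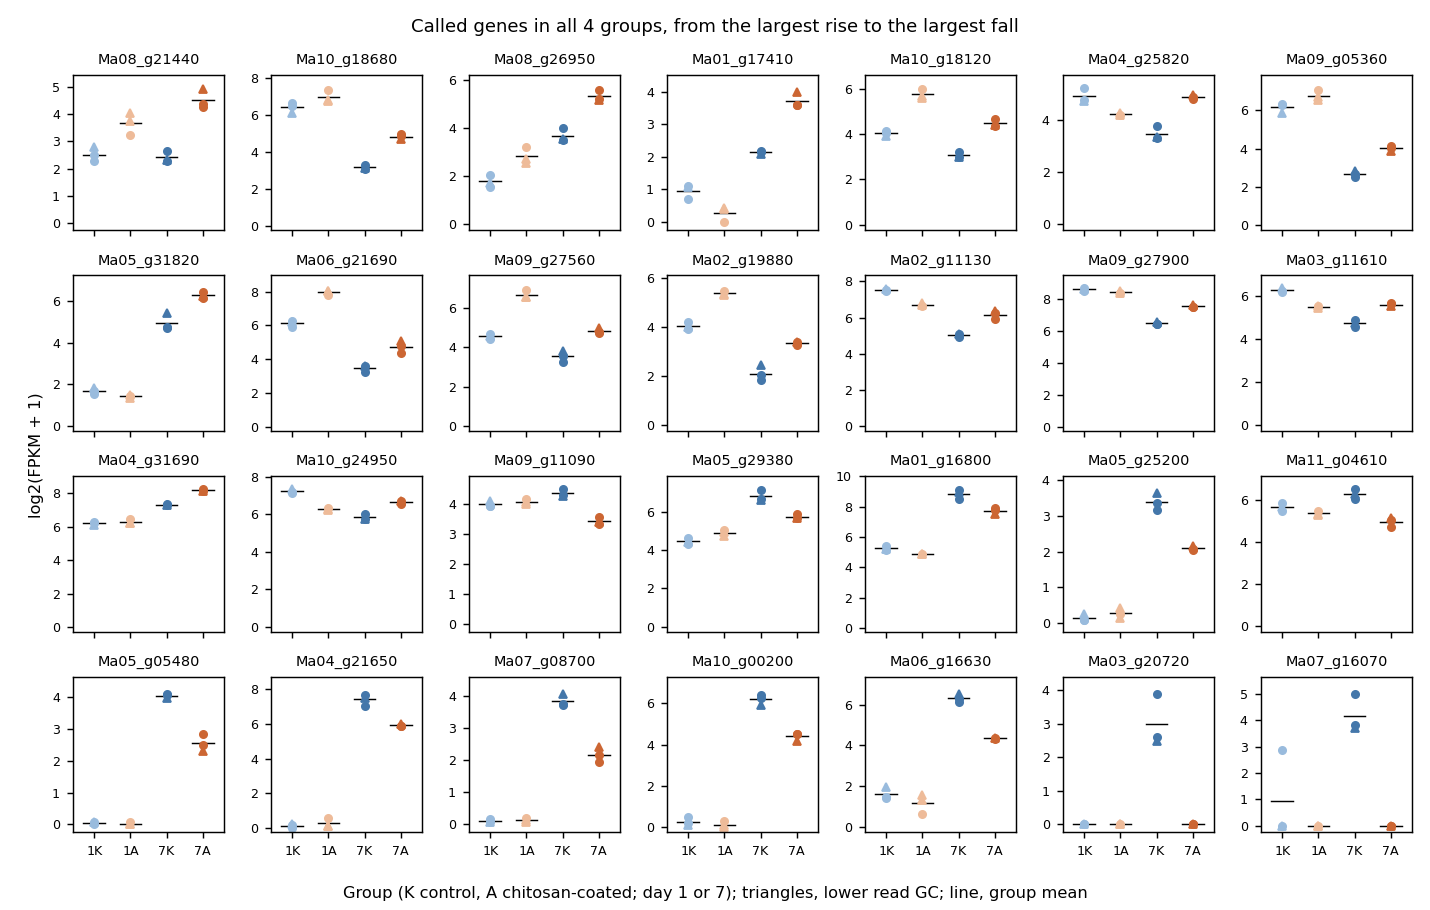
log2(FPKM + 1) of the 28 genes called at day 7 in all 12 libraries, a panel for each gene, with the groups 1K, 1A, 7K and 7A on the horizontal axis, triangles for low-GC libraries and a line at each group mean. The falls in the last 2 rows of panels include Ma05_g05480, Ma04_g21650, Ma07_g08700 and Ma10_g00200, which lie near 0 at day 1 and are present at day 7, at a lower level in 7A than in 7K.

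The coating difference was next taken separately in the low-GC pair (7A_c against 7K_c) and in the other 4 libraries (7A_a and 7A_b against 7K_a and 7K_b), in a single limma fit with a mean for each group and GC group. The 2 looks share no library, but they share the same estimate of the spread of each gene, to which the pair itself adds nothing. A call in the pair is therefore not independent of a call in the other 4 libraries. In the 4 libraries 346 genes were called (1.90%), 164 higher (0.899%) and 182 lower (0.997%). In the pair 413 were called (2.26%), 84 higher (0.460%) and 329 lower (1.80%), where the lone library of each side is assumed to vary like the groups with 2. The tested genes as a whole had a median log2 fold change of -0.08 in the 4 libraries and of -0.24 in the pair, and after median-of-ratios scaling it was 0.01 and -0.01. With that scaling 283 genes were called in the 4 libraries, 204 higher and 79 lower, and 217 in the pair, 158 higher and 59 lower.

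Genes called in the 4 libraries mostly took the same direction in the pair. Of the 164 higher genes, 152 (92.7%) had a log2 fold change above 0 in the pair, against 22.3% of all tested genes, and 44 were called there too. Of the 182 lower genes, 172 (94.5%) were below 0 in the pair, against 77.2% of all tested genes, and 49 were called. After median-of-ratios scaling, with its centre near 0, the shares were 197 of 204 (96.6%, against 48.4% of all) for the higher and 66 of 79 (83.5%, against 51.1%) for the lower genes. Over all tested genes the direction was the same in 12045 (66.0%), and the log2 fold changes of the pair and of the 4 libraries had a Pearson r of 0.385 across genes, which share their libraries and are not independent. All 28 genes of the plain comparison were past the threshold in the 4 libraries and 23 of them in the pair, where the values are the same ones that had called them.

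**Figure D4:**
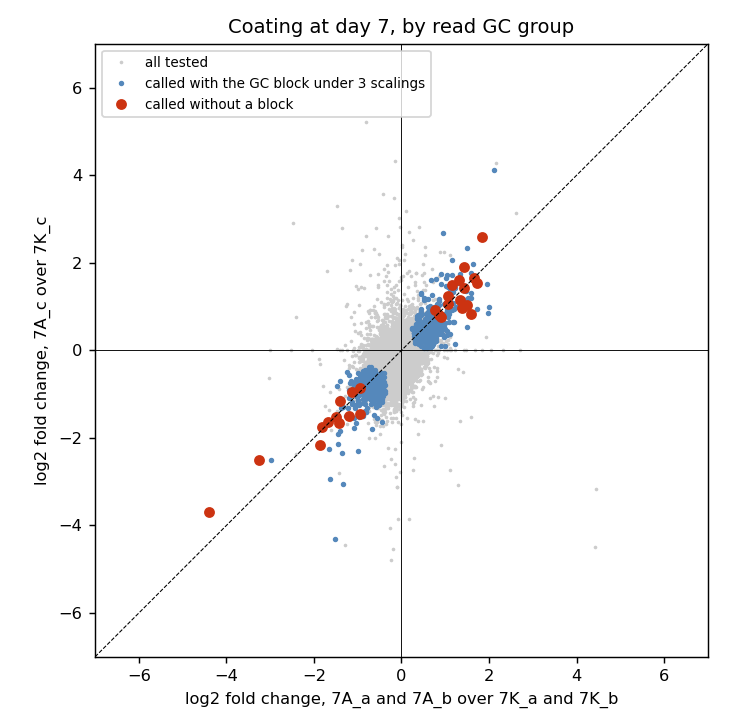
log2 fold change of coated over control fruit at day 7 in the low-GC pair (vertical) against that in the other 4 libraries (horizontal), for all tested genes (grey), the genes called with the GC group as a block under 3 scalings (blue) and the 28 genes called without a block (red). The 28 genes lie in the upper right and lower left parts near the diagonal, while the grey cloud is centred at -0.08 and -0.24.

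A test of the difference between the pair and the other 4 called 3 genes (0.0164%), with 2207 at an unadjusted p under 0.05 in limma, and 13 after median-of-ratios scaling. The 3 genes were Ma02_g08400 (201 bp), Ma04_g38630 (153 bp) and Ma09_g26640 (261 bp), named here after their values were seen. No library held more than 3 implied fragments of any of them, so these calls rest on single fragments. No better covered gene passed as deposited. A few stood apart in 7A_c. Ma06_g03090 on chromosome 6 (2295561 to 2296332) measured 23.9, 26.8 and 73.8 in 7K and 18.9, 21.5 and 257 in 7A, the highest value by far being that of 7A_c. Its log2 fold change was -0.32 in the 4 libraries and 1.79 in the pair (adjusted p = 0.0818 for the difference from limma). Ma03_g19280 stood at 67.5, 72.4 and 68.9 in the control and 67.7, 63.3 and 146 in the coated libraries, where only 7A_c stood apart (adjusted p = 0.112). The short loci Ma03_g28700 and Ma04_g12780 had the same shape, with 36.4 and 18.7 FPKM in 7A_c, from 14 and 10 implied fragments, against at most 10.2 and 6.11 in the other day 7 libraries. The coated and control ranges overlapped in all 4 genes, and none was called in the plain comparison.

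A set of 701 genes was called with the GC block under each of 3 scalings (as deposited, median-of-ratios and quantile normalization), which is 3.84% of those tested. Of these 365 were higher (2.00%) and 336 lower (1.84%) in the coated fruit, and the 28 genes are among them. The direction was the same in the pair and in the 4 libraries in all 701, and the coated and control values did not overlap in 428, against 2181 of all tested genes (12%), but both counts come from the values that had selected the genes. The split of calls depended on the scaling, with 386 higher and 1565 lower as deposited, 729 and 398 with median-of-ratios and 597 and 449 with quantile normalization. Without 7A_c the block gave 1108 genes as deposited, 333 higher and 775 lower. Leaving out other libraries gave from 597 genes (without 7K_c) to 2667 (without 7K_a), with 947 without 7A_a, 1022 without 7A_b and 762 without 7K_b. The GC group itself was called in 13625 genes (74.7%). Far more genes were thus called for the GC group than for coating at day 7. The GC term, however, was estimated over all 12 libraries of both days, and coating at day 7 sets 3 libraries against 3. The 2 counts are therefore not of like contrasts.

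Among the largest changes of these 701 genes, 6 rises and 5 falls were called with the block and not in the plain comparison as deposited. Of these, Ma04_g27480 was also called without a block after median-of-ratios scaling and quantile normalization (limma adjusted p = 0.00574 and 0.0147), Ma07_g08380 after quantile normalization (0.0313) and Ma04_g29690 without 7A_c (0.0409). Most of the rises had a far larger coating difference at day 1. Ma08_g27150 measured 1.39, 1.56 and 2.99 in 7K and 7.34, 6.01 and 14.8 in 7A, and its low-GC library was the highest of either group. In the fit with the block it had a log2 fold change of 1.75 (SE 0.15) and a limma adjusted p of 9.04e-05, against 0.12 without the block. At day 1 it stood at 9.11 ± 2.13 in control and 203 ± 63.6 in coated fruit (SD, n = 3 each). Ma06_g06040 measured 1.07, 3.59 and 2.82 against 9.52, 6.23 and 18.4 at day 7, after 3.90 and 224 at day 1. Ma05_g03320 measured 1.20, 2.68 and 6.97 against 12.2, 8.21 and 21.8, after 42.4 and 559. In these 3 genes the coating difference was present on both days, and the level of the coated fruit was lower at day 7 by far.

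Ma05_g09360 had a smaller drop, with 1.38, 2.06 and 3.25 in 7K and 7.97, 7.16 and 12.8 in 7A after 1.68 and 18.1 at day 1. Ma04_g29690 (288 bp) rested on 2, 1 and 1 implied fragments in the control, so no fold is given. Its coated libraries stood at 6.84, 5.71 and 25.4 FPKM, and at day 1 its means were 0.335 and 124. Ma04_g27480 was the exception among these rises, since it had no difference called at day 1 (7.85 against 6.81, adjusted p = 0.871 from limma). It measured 31.4, 21.5 and 16.8 in the control and 81.5, 91.8 and 56.9 in the coated libraries at day 7, with a log2 fold change of 1.70 in the pair and 1.70 in the other 4. All 3 coated libraries were above all 3 control libraries in each of these genes.

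Of the 5 falls, Ma07_g08380 was the gene with the clearest difference on both days. It measured 16.8, 19.0 and 14.3 in 7K and 4.44, 7.6 and 3.07 in 7A, or -1.61 on the log2 scale (SE 0.21, limma adjusted p = 0.0012 with the block), after 28.6 ± 4.42 and 2.60 ± 0.636 at day 1 (SD, n = 3 each). Ma05_g11740 and Ma07_g19910 were at or below 0.265 FPKM at day 1 in both groups. At day 7 Ma05_g11740 stood at 9.09, 22.2 and 23.3 in the control and 5.88, 3.93 and 5.77 in the coated libraries, and Ma07_g19910 at 71.6, 108 and 71.7 against 45.5, 42.2 and 13.7. The lowest value of Ma07_g19910 was that of 7A_c.

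Ma08_g20650 and Ma04_g13620 varied widely within the control. Ma08_g20650 measured 7.36, 13.2 and 49.1 in 7K and 4.0, 2.75 and 5.03 in 7A, where 7K_c held most of the difference, and it had been far higher at day 1 (723 and 1130). Ma04_g13620 measured 3.71, 11.8 and 19.3 against 1.55, 1.5 and 1.67. In both genes the low-GC pair gave a larger log2 difference (-3.06 and -2.93) than the other 4 libraries (-1.33 and -1.62), and the test of that difference did not pass (adjusted p = 0.289 and 0.443 from limma).

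Set against the coating difference of the same genes at day 1, the 701 genes were uneven. Of the 365 higher genes, 69 (18.9%) were called higher and 35 (9.59%) lower at day 1, against 2.45% and 2.02% of all tested genes. Of the 336 lower genes, 11 (3.27%) were called lower and 3 (0.893%) higher. With the GC group as a block on day 1 as well, an alternative added after the data were seen, the shares for the higher genes were 110 (30.1%) higher and 105 (28.8%) lower, and for the lower genes 41 (12.2%) higher and 61 (18.2%) lower, against 12.1% and 13.5% of all tested genes. The late rises thus held a larger share of genes with a day 1 call in either direction than all tested genes did, while the shares of the late falls lay nearer to the background. No test was made of these shares. The calls of both days come from fits over all 12 libraries with a common spread per gene, so they are not independent. A gene with a small spread is more easily called on both days. At day 1 the low-GC libraries are 1K_c, 1A_a and 1A_b, so coating and read GC are uneven there.

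**Figure D5:**
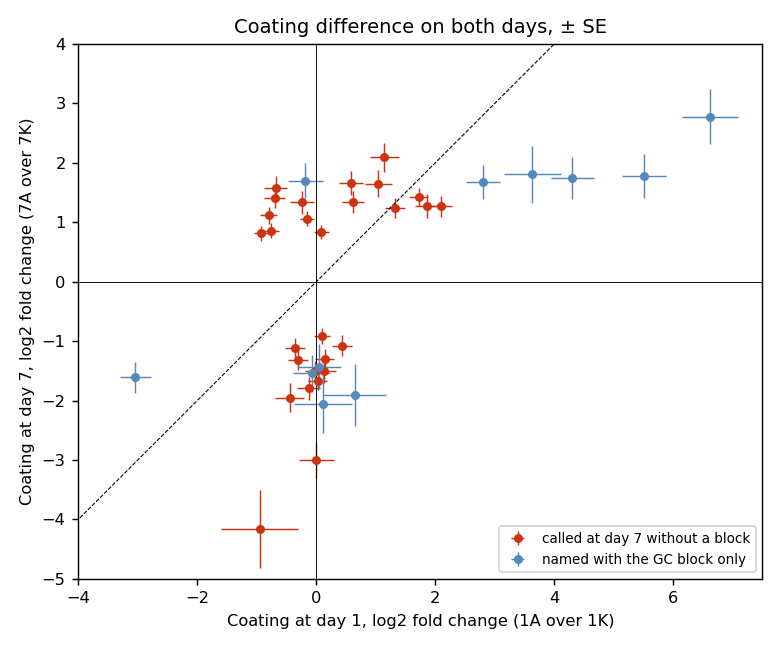
log2 fold change of coated over control fruit at day 7 (vertical) against day 1 (horizontal), with bars of ± 1 SE from limma, for the 28 genes called at day 7 (red) and the 11 genes named only with the GC block (blue). The red rises lie on both sides of the vertical axis, most falls lie close to it, with Ma07_g08380 (blue) at the far left, and the blue points at the far right are the rises with the larger day 1 difference.

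Genes of the set of 701 were found across the genome, and a larger share of the abundant genes was called. The share of tested genes in the set of 701 ran from 2.61% on chromosome 1 to 4.83% on chromosome 2, and 9 of 190 tested genes on unplaced sequence belonged to it. By mean FPKM over the 6 libraries it was 2.27% of 6597 genes below 5, 4.05% of 6672 between 5 and 20, 5.24% of 3990 between 20 and 100 and 7.29% of 987 above 100. The median absolute log2 fold change of the plain comparison did not rise in this way, with 0.192, 0.185, 0.185 and 0.196 in the same classes. Why the share of calls rose with the level was not tested. The span of the locus had a median of 4485 bp over all tested genes, 2925 bp over the 701 and 1715.5 bp over the 28 genes.

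Of the named genes, 5 had a neighbour in gene order that was called with the block, in each case in the same direction. Over the whole set of 701 genes there were 29 adjacent pairs, and 22 of these had the same direction in both genes. How often this occurs over all tested genes was not examined. Ma01_g16800 lies beside Ma01_g16810 (chromosome 1, 12302548 to 12303322), which measured 582, 866 and 1459 in the control and 336, 358 and 464 in the coated libraries (adjusted p = 0.000578 with the block, from limma). Both stood higher in every control library than in any coated library. Ma08_g20650 lies beside Ma08_g20660, which measured 12.1, 11.8 and 14.5 against 7.35, 6.44 and 6.20 (adjusted p = 0.00171). Ma10_g18120, Ma01_g17410 and Ma02_g11130 each had a neighbour that was higher with the block (Ma10_g18110, Ma01_g17400 and Ma02_g11120), with adjusted p of 0.0181, 0.0327 and 0.0305 from limma, but coated and control values overlapped in all 3 neighbours. The handling of fragments that map to several genes is not given in the sources used here, so near-identical neighbours can share fragments.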

How the data were processed

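RNA was measured by paired-end RNA-seq in 12 libraries of banana pulp, 3 per group. The authors checked reads with FastQC, mapped them with TopHat to the DH Pahang version 2 genome and quantified genes with Cufflinks (version 2.2.2.1 in the submitters' processing notes). The text of the paper gives a different version of Cufflinks. The deposited tables hold FPKM per gene with the bounds of its 95% interval. Of 35273 lines, 1 without an ID and 2 that share an ID were left out. FPKM was not rescaled and was tested as log2(FPKM + 1), which understates fold changes of low genes. limma 3.58.1 in R 4.3.3 was fitted with an intensity trend to 4 group means over all 12 libraries, for the genes that reached an FPKM of 1 in 3 or more day 7 libraries, with Benjamini-Hochberg adjustment and a threshold of 0.05. Library-level values were compared by exact permutation (two-sided) in Python (3.11.15, with numpy 2.4.6, pandas 2.3.3 and matplotlib 3.10.9). The fit was tested on simulated data.

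Implied fragments were taken as (2 × FPKM / (upper bound - FPKM)) squared, and the precision they give is that of counting error only. Groups follow the labels. The GC group follows the read GC percentages that the study states for each library. The day 7 libraries of the same letter deviated together from their group means (correlation across genes 0.756 for a, 0.501 for b and 0.878 for c), so by the rule used the letters pair them. 7K_b, however, correlated more with 7A_a (0.540) than with 7A_b, and 7K_a reached 0.728 with 7A_b. The letters a and b were thus not clearly told apart, and the pattern mainly set the low-GC pair c against the others.

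Named were all genes called in the plain comparison, the 10 largest rises and 10 largest falls called with the GC block under 3 scalings (a group mean FPKM of at least 5, at least 10 implied fragments in each library of the higher group, the same direction in the pair and the other 4), the 4 genes with the smallest adjusted p for the difference between the pair and the other 4 among those with opposite directions there and a group mean FPKM of at least 5, and called neighbours. The genes called for the difference between the pair and the other 4 were named after their values were seen. Members, lists and alternatives were chosen with earlier results of these data known. Gene lists by product name and tissue markers could not be run, since 0 IDs matched the reference gene table of another banana assembly. Alternatives were other pseudocounts, filters and scalings, limma without a trend, limma's voom on implied fragments, the replicate and GC blocks, the 6 libraries alone and each library left out.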

Additional observations from a re-analysis of the deposited data

Results flagged for a closer look

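In 19 genes the coating effect at day 7 differed from that at day 1 by a test of the difference itself (limma interaction, adjusted p from 0.00279 to 0.0327, against 1.75% of all tested genes called). All 19 had been named through their day 7 values, which enter this test too, so passing is in part fixed by the selection. The values are log2 fold changes at day 7 minus those at day 1. Among the genes higher in coated fruit at day 7, the difference was 2.27 for Ma01_g17410, 2.11 for Ma04_g25820, 1.92 for Ma02_g11130, 1.74 for Ma10_g24950, 1.61 for Ma03_g11610, 1.57 for Ma05_g31820 and 1.22 for Ma09_g27900. Among the genes lower in coated fruit at day 7, it was -1.69 for Ma07_g08700, -1.66 for Ma10_g00200, -1.64 for Ma04_g21650, -1.51 for Ma05_g29380, -1.48 for Ma05_g05480, -1.44 for Ma05_g25200, -1.01 for Ma09_g11090 and -3.00 for the short locus Ma03_g20720. Ma08_g20660, lower in coated fruit at day 7 and higher at day 1, had -1.69. In 3 genes the rise with coating was smaller at day 7 than at day 1, with -3.84 for Ma04_g29690, -3.73 for Ma06_g06040 and -2.56 for Ma08_g27150.

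In 3 short loci the coating effect in the low-GC pair differed from that in the other 4 day 7 libraries by the same kind of test. The difference on the log2 scale was 3.09 for Ma02_g08400 (adjusted p = 0.0139 from limma), -3.81 for Ma04_g38630 (0.000893) and 3.18 for Ma09_g26640 (0.00292), each from at most 3 implied fragments per library.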

How the results depend on the processing

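The plain comparison at day 7 called 28 genes, and all 28 kept their direction in every alternative that could be computed for them, while the call was kept in 10 to 22 of 24 alternatives. Many alternatives could not change a direction. The coated and control ranges of all 28 were apart, so leaving out a library without a block cannot reverse them. As deposited, the GC block, the replicate block, the 6 libraries alone and limma without a trend give the same log2 fold changes as the plain comparison. The count moved to 16 with a pseudocount of 0.1, 62 with any FPKM above 0, 16 with median-of-ratios scaling, 55 with quantile normalization, 0 in the 6 libraries alone (745 at an unadjusted p under 0.05 in limma), and 4 to 27 with a library left out. With the replicate block it was 2 over 12 libraries and 572 over the 6. With the GC block it was 1951, with that block 1127 after median-of-ratios scaling, 1046 after quantile normalization, 1108 without 7A_c, 2119 by voom, and 597 to 2667 with a library left out. Calls in the low-GC pair fell from 413 to 217 and 70 under the same scalings, and the difference between the pair and the other 4 moved from 3 to 13 with median-of-ratios scaling. At day 1 the GC block moved the count from 816 to 4678. The cause of these moves was not tested. The few fragments implied for 7A_c limit what low genes can show there.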

Other observations

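The transcripts of the mitochondrial genome, 28 tested genes on 10 scaffolds, were on the low side in coated fruit at day 7. Their log2 fold change was below 0 in 28 of 28 genes as deposited, with a median of -0.32, against 73.0% of all tested genes and a median of -0.14. After median-of-ratios scaling it was below 0 in 26 of 28, against 49.5% of all tested genes, with a median of -0.19 against 0.00. None of the 28 was called without a block, against 0.153% of all tested genes. With the GC group as a block under 3 scalings 1 was called (3.57%), against 3.84% of all tested genes, so the share of calls was at the background. That gene, mito9_g00040, measured 9.70, 8.52 and 14.2 in the control and 4.79, 5.69 and 6.90 in the coated libraries. Genes of the same genome are not independent, and no test was made over them.

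The most abundant transcript of the day 7 pulp, Ma03_g16510 (chromosome 3, 19115091 to 19115967), measured 34277, 57677 and 120140 in 7K and 32216, 35489 and 87459 in 7A. Both low-GC libraries stood far above the others, and the coated and control ranges overlapped. None of the 10 most abundant genes was called without a block or under all 3 scalings with it. The shares over all tested genes were 0.153% and 3.84%, and 7.29% under the 3 scalings for genes above a mean FPKM of 100. A count of none among 10 genes is thus near the background and does not set them apart.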
